A study of Mus musculus with 21 samples.

Results

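Cpm, Fam107a, Ear3, Ang3, Cyp2e1 and Mertk are 6 genes that stood far above control in adipocytes kept under the glucocorticoid dexamethasone (Dex). They were chosen by their large differences from control on the Dex arrays at 2 h, 24 h or 6 d, so their values in the Dex groups are a description of what chose them and carry no test. They are 6 of 18194 genes with a probe set of their own, and 9 of the 45101 probe sets on the array carry 1 of their symbols. Each gene was read from its brightest probe set, and all 6 passed the filter on dim genes, which kept 12156 genes. Cpm and Ang3 passed it through Dex arrays alone, since 0 of their 12 control and TNF arrays lay above the level threshold.

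The cells were 3T3-L1, a mouse preadipocyte line that was turned into fat cells over 14 days in culture, and no genotype beyond the line is given in the labels. Of the 7 groups of 3 arrays, the control was left without treatment and was harvested at time 0 h. The others received 20 nM Dex or the cytokine TNF (tumour necrosis factor), whose dose is not given in the sources used here, for 2 h, 24 h or 6 d before harvest. The series follows how adipocytes become insulin resistant under each agent. A 3T3-L1 culture is 1 clonal line without the vessels and immune cells of fat tissue, and whether vehicle or time in culture was matched at 6 d is not given in the labels.

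Dexamethasone enters the cell and binds the glucocorticoid receptor, a transcription factor that moves to the nucleus and binds DNA or other factors there. Some targets respond directly within hours, and others respond later, through proteins that must first be made. TNF signals through NF-kB, a pathway that glucocorticoids are known to oppose at many inflammatory genes. The 6 genes have unlike products: Cpm is a carboxypeptidase anchored at the cell surface, Fam107a an actin-associated protein, Ear3 and Ang3 secreted ribonucleases, Cyp2e1 a cytochrome P450 of the endoplasmic reticulum, and Mertk a receptor tyrosine kinase.

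Levels are given on the log2 scale of robust multi-array averaging (RMA), on which a difference of 1 is a doubling of signal. A level is set only against the same gene on other arrays, because probe sets differ in brightness. The level threshold, 5.34, is the median of all values, and a mean below it is near background, so that a difference from such a mean is a lower limit on its size. Changes are differences of means ± the standard error (SE) of a limma model of all 21 arrays, so the SE pools the spread of the 7 groups. The array TNF 6 d replicate 2 stood apart, with an SD of 2.04 over its probe sets against 2.44 to 2.51 on the 20 others. Its Actb and Gapdh control probes differed between the 3' and 5' ends by 2.00, a sign of degraded RNA, where the other arrays reached 0.78. It enters the pooled spread of every comparison, so values without it are given where leaving it out changes a call or moves a count by over 1.5 times. The adipocyte genes Adipoq and Fabp4 lay at 14.16 or more on every array, and Plin1 had no probe set of its own. In all, 12 of 13 measured adipocyte markers exceeded the threshold in each group.

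The plot of levels on each array shows the shared pattern: under Dex each gene came to stand apart from the other groups, and under TNF none was called above control in the model of all 21 arrays. At 6 d the lowest Dex array exceeded the highest of the 12 control and TNF arrays for every one of the 6 genes. That separation restates the choice of the genes, and its share among all tested genes was not counted. Within the same picture the genes part in their timing. Mertk was at its highest mean at 2 h, Fam107a and Ear3 stood well above control by then and went on to 24 h, and Ang3 and Cyp2e1 came later. Cpm was placed beside Fam107a by its brightest probe set and later by its other one.

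**Figure D1:**
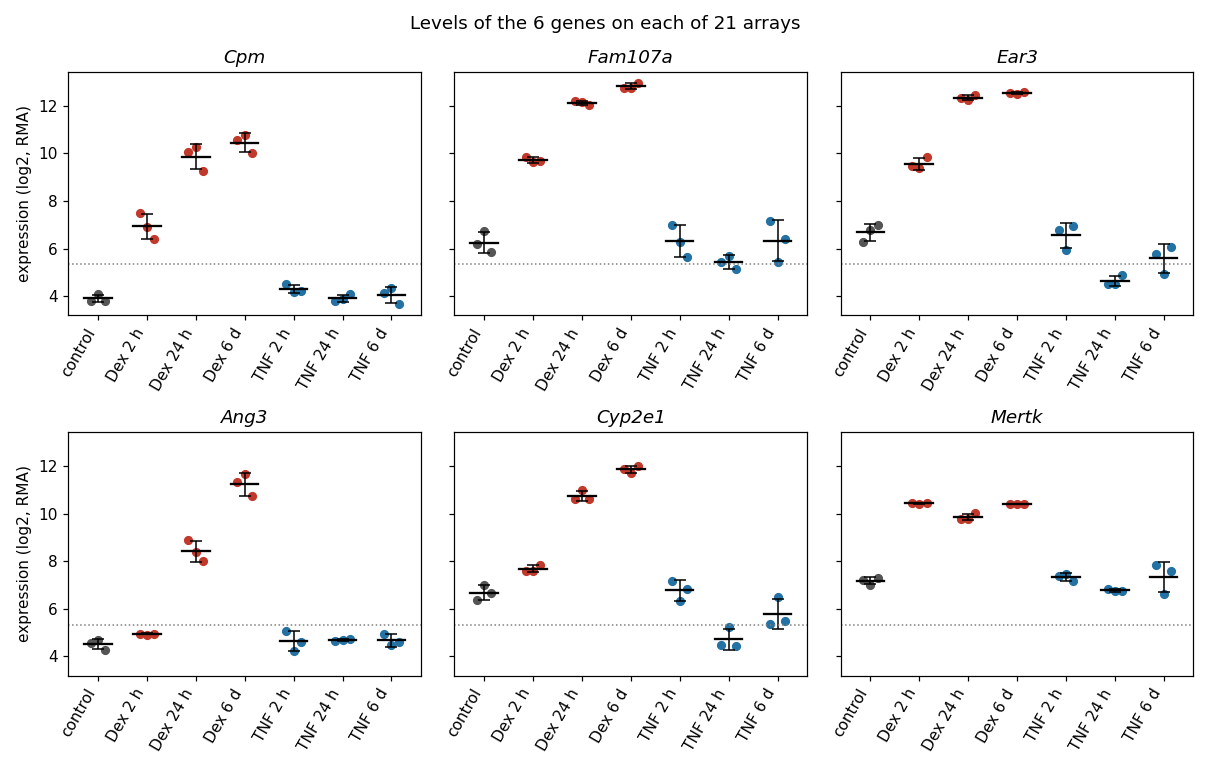
Expression (log2, RMA) of Cpm, Fam107a, Ear3, Ang3, Cyp2e1 and Mertk on 21 arrays, 3 in each of 7 groups (control grey, Dex red, TNF blue). Points are arrays, black bars the mean ± SD (n = 3), and the dotted line is the level threshold of 5.34. The 6 d Dex arrays of every gene lie above all control and TNF arrays, which restates the choice of the genes.

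Mertk, a receptor of the TAM family through which cells recognise and engulf dying cells, was near its 6 d level after 2 h of Dex. Its mean was lower at 24 h. Control arrays read 7.22, 7.01 and 7.31, and the Dex arrays read 10.46, 10.43 and 10.43 at 2 h. At 24 h they read 9.79, 9.79 and 10.02, and at 6 d 10.40, 10.41 and 10.42. The spread at 6 d was an SD of 0.01, and no 24 h array reached the lowest 2 h array. As changes against control these were 3.26 ± 0.22, 2.68 ± 0.22 and 3.23 ± 0.22, or 9.58-fold, 6.42-fold and 9.37-fold. The log2 change at 2 h was 101% of that at 6 d, and from 2 h to 24 h the difference was -0.58 ± 0.22.

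Fam107a, known in the brain as a stress and glucocorticoid responsive gene, was intermediate in timing and among the highest in size. Its control arrays read 6.19, 6.74 and 5.84. Under Dex they read 9.86, 9.64 and 9.68 at 2 h, 12.20, 12.15 and 12.03 at 24 h, and 12.77, 12.75 and 12.97 at 6 d. The groups do not overlap at any step of the course. The changes against control were 3.47 ± 0.35, 5.87 ± 0.35 and 6.57 ± 0.35, the last a 95.1-fold difference. At 2 h the gene had covered 53% of its 6 d log2 change, and at 24 h 89%.

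Cpm, which trims basic residues from the ends of peptides outside the cell, had no signal above the threshold outside the Dex groups. Control arrays read 3.80, 4.09 and 3.82, all below it. The Dex arrays read 7.48, 6.93 and 6.42 at 2 h, 10.06, 10.27 and 9.27 at 24 h, and 10.56, 10.78 and 10.002 at 6 d. Every Dex array lay above the threshold, while the 24 h and 6 d arrays overlapped. Against the near-background control the changes were at least 3.04 ± 0.27, 5.96 ± 0.27 and 6.54 ± 0.27, or at least 8.22-fold, 62.3-fold and 93.3-fold. On this probe set the share of the measured 6 d log2 change was 46% at 2 h and 91% at 24 h, figures that depend on the near-background control level.

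Ear3, of the eosinophil-associated ribonucleases of rodents, reached its level by 24 h. Control arrays read 6.28, 6.77 and 6.995, and Dex arrays read 9.48, 9.37 and 9.86 at 2 h. They read 12.34, 12.26 and 12.45 at 24 h and 12.53, 12.49 and 12.59 at 6 d. The last 2 groups lay side by side, with a difference of 0.19 ± 0.28. The changes against control were 2.89 ± 0.28, 5.67 ± 0.28 and 5.85 ± 0.28, or 7.41-fold, 50.8-fold and 57.9-fold, and 97% of the 6 d log2 change was present at 24 h. The suffix of its single probe set, x, marks probes that can bind transcripts of other genes. The related genes Ear1, Ear2, Ear6, Ear10 and Ear14 had no probe set of their own under those symbols, and probe sets listing several genes were not read. Signal from such relatives cannot be told apart from Ear3 here. Rnase2a and Rnase2b, of the same ribonuclease superfamily, had means below the threshold in all 7 groups.

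Cyp2e1, the ethanol-oxidising P450 best known from liver, moved slowly. Control arrays read 6.36, 7.01 and 6.69, and the 2 h Dex arrays read 7.58, 7.61 and 7.85, all above the highest control. Dex arrays read 10.61, 10.996 and 10.64 at 24 h and 11.87, 11.70 and 12.02 at 6 d. Each later group lay wholly above the one before. The changes were 0.995 ± 0.29, 4.06 ± 0.29 and 5.17 ± 0.29, or 1.99-fold, 16.7-fold and 36.1-fold, so that 19% of the 6 d log2 change was there at 2 h and 78% at 24 h.

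Ang3, an angiogenin-family ribonuclease, was the latest of the 6. Control arrays read 4.58, 4.69 and 4.28, and the 2 h Dex arrays read 4.96, 4.92 and 4.96, still below the threshold and below 1 of the TNF 2 h arrays (5.08). Dex arrays then read 8.89, 8.38 and 8.02 at 24 h and 11.34, 11.68 and 10.73 at 6 d. The difference between 24 h and 6 d, 2.82 ± 0.25, exceeded that of the other 5 genes, which ran from 0.19 to 1.12. Against the near-background control the change was at least 3.91 ± 0.25 at 24 h and 6.73 ± 0.25 at 6 d, or at least 15.1-fold and 106-fold. At 2 h, with both groups near background, no fold is given. The other 5 genes thus stood apart from the control and TNF arrays from 2 h on, and Ang3 was separated from those arrays at 24 h and 6 d. Both again describe the Dex arrays that chose the genes, and the share of all tested genes so separated was not counted. In RefSeq's table of GRCm38.p6 the transcript that the platform pairs with this probe set is listed as Ang5, and the symbol Ang3 is kept here as the platform gives it.

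**Figure D2:**
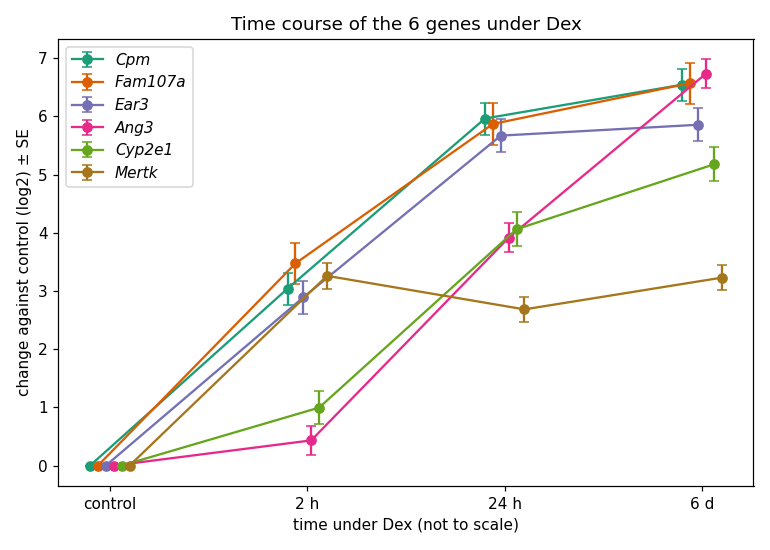
Change of the 6 genes against control (log2 ± SE, limma model of 21 arrays, 3 arrays a group) at 2 h, 24 h and 6 d of Dex, with the times spaced evenly and lines joining the means of 1 gene. Mertk stands at 3.26 at 2 h, 2.68 at 24 h and 3.23 at 6 d. Cpm, Fam107a and Ear3 lie at 2.89 to 3.47 at 2 h and above 5.6 from 24 h, and Ang3 goes from 0.43 at 2 h to 6.73 at 6 d.

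Ranked by change among the 12156 genes tested, 2 of the 6 were among the 10 highest at 2 h of Dex, 5 at 24 h and 5 at 6 d. At 2 h the ranks were 5 for Fam107a, 8 for Mertk, 12 for Cpm, 14 for Ear3, 176 for Cyp2e1 and 642 for Ang3. At 6 d Ang3 was 1, Fam107a 2, Cpm 3, Ear3 4, Cyp2e1 6 and Mertk 17. These ranks restate the choice of the genes, and places set by a background control level have no firm order. For scale, the model called 1.66% of tested genes higher and 0.814% lower at 2 h of Dex, 2.06% and 2.11% at 24 h, and 3.22% and 5.08% at 6 d, and nothing is read from these shares for the 6 genes.

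Cpm and Fam107a have further probe sets, with lower mean signal over the arrays and the same order of the Dex times. The second Cpm probe set was higher than control by 1.30, 4.58 and 5.43 at 2 h, 24 h and 6 d, where the brightest gave 3.04, 5.96 and 6.54. For Fam107a the other probe sets gave 2.39, 4.82 and 5.61, and 2.10, 3.80 and 4.72, against 3.47, 5.87 and 6.57. In each of the 5 probe sets the means followed the order 2 h, 24 h, 6 d. The part of the 6 d log2 change present at 2 h was 24% on the second Cpm probe set, against 46% on the brightest, and the control lay near background on both. For Fam107a the others gave 43% and 44%, against 53%. The probe set with 44% had a near-background control of 4.41, so its changes of 2.10, 3.80 and 4.72 are lower limits. The size of a change therefore depends on the probe set by more than the SD between arrays, and so does the early part of the Cpm course, while direction and order in time were the same on all 5.

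**Figure D3:**
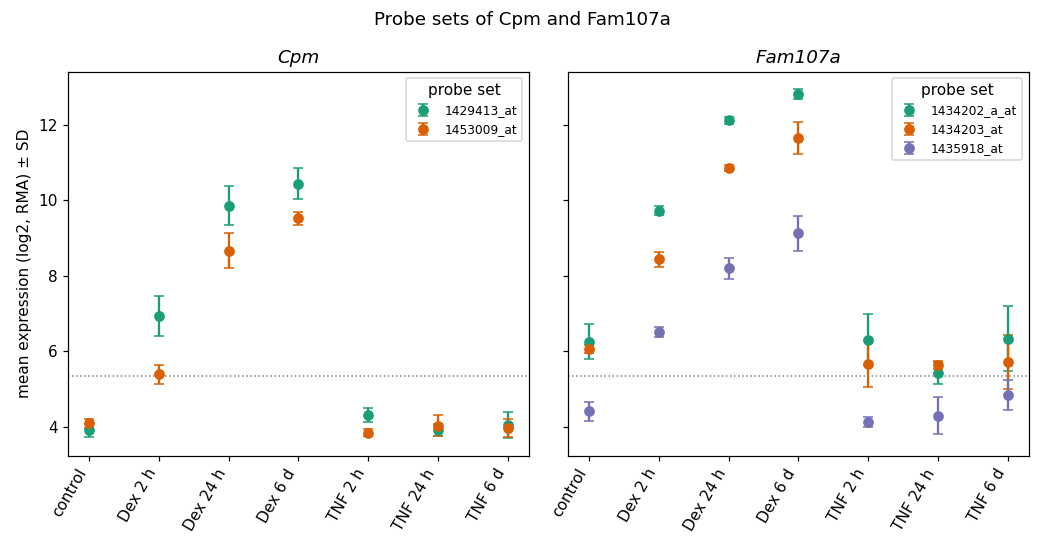
Mean expression (log2, RMA) ± SD (n = 3 arrays) of the 2 probe sets of Cpm and the 3 of Fam107a in the 7 groups, with the level threshold of 5.34 dotted. All 5 probe sets step up from 2 h to 6 d of Dex, and those of Cpm and the dimmest of Fam107a lie below the threshold in control and TNF groups.

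The DNA upstream of 3 of the genes is printed to show what lies before an early, an intermediate and a late responder. RefSeq promoter windows of GRCm38.p6 were at hand for 5 of the 6 genes, with Ang3 matched as Ang5. They were searched over the 250 bases before each annotated start, on both strands, for the palindromic glucocorticoid response element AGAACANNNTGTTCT and for AGAACA, the hexamer at its end. The hexamer is part of the palindrome, so a palindrome would count under both. Capitals mark the hexamer or its reverse complement. The first window precedes a start within the Fam107a gene, at chr14:8309780-8310029 on the minus strand. The second precedes the start of Mertk at chr2:128698665-128698914 on the plus strand. The third precedes Ang5 at chr14:43956819-43957068 on the plus strand.
Fam107a: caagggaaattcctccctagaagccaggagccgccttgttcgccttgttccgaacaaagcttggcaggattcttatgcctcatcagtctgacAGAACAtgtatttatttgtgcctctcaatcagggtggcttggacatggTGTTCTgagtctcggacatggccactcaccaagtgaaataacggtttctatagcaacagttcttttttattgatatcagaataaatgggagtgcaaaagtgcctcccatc
Mertk: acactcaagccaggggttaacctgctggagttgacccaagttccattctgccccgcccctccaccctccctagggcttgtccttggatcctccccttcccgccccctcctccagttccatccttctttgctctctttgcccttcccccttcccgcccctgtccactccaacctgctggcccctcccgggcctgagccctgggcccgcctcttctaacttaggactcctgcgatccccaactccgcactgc
Ang5: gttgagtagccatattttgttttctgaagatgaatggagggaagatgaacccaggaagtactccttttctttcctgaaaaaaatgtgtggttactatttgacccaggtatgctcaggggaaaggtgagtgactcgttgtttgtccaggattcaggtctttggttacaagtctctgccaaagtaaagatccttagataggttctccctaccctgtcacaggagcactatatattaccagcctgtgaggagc

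No window of the 5 genes held the palindrome, which 0.00913% of all 32851 windows held. Before the inner start printed above, Fam107a held 2 hexamers, in opposite orientations and starting 158 and 110 bases upstream. A further inner window, at chr14:8309778-8310027, overlapped it and held the same 2 hexamers, 160 and 112 bases before its start. The window before the outer start, at chr14:8317608-8317857, held none. Which of these starts the Fam107a probe sets read was not examined. The hexamer was in 16.1% of all windows. The windows of Cpm (chr10:117629250-117629499), Cyp2e1 (chr7:140763569-140763818), Mertk and Ang5 held neither. A match is a run of letters and not a bound site, and a window without one says nothing of elements elsewhere. The genes themselves span chr10:117629500-117687352 for Cpm, chr14:8296270-8317607 for Fam107a, chr7:140763819-140774990 for Cyp2e1, chr2:128698915-128803162 for Mertk and chr14:43957069-43963080 for Ang5.

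Under TNF the 6 genes did not follow their course under Dex. These comparisons share only the control arrays with the choice of the genes, and the comparisons between TNF times share none. Cpm and Ang3 entered the tests through Dex arrays alone and lay below the threshold on every control and TNF array. They stay in each count of 6 under TNF, though a fall could be called only for Fam107a, Ear3, Cyp2e1 and Mertk. Shares of all genes are given beside these counts for scale. After 2 h of TNF, limma called 0 of the 6, with 0 at an unadjusted p below 0.05, where 3.82% of all tested genes were called. The changes ran from -0.13 ± 0.28 for Ear3 to 0.41 ± 0.27 for Cpm, which was near background in both groups. Without TNF 6 d replicate 2, again 0 were called, against 10.7% of all genes.

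After 24 h of TNF, Ear3 and Cyp2e1 fell, and 2 of the 6 genes were called lower where 3.27% of all tested genes were. Ear3 arrays read 4.51, 4.50 and 4.89, all below the 3 control arrays (6.28 to 6.995) and below the threshold. Ear3 thus fell by at least 2.04 ± 0.28, or at least 4.13-fold (limma adjusted p = 5.17e-05, lower on 3 of 3 arrays). Cyp2e1 arrays read 4.49, 5.23 and 4.46 against 6.36 to 7.01 in control, again with no overlap. The change of Cyp2e1 was -1.96 ± 0.29, a fall of at least 3.90-fold (limma adjusted p = 1.21e-04). Set against the 2 h TNF arrays, which owe nothing to the choice of the genes, Ear3 fell by at least 1.92 ± 0.28 (limma adjusted p = 1.80e-04). Against the same arrays the change of Cyp2e1 was -2.05 ± 0.29 (limma adjusted p = 1.25e-04), again a lower limit in size. There 2 of 6 were called lower, against 2.69% of all genes.

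Fam107a and Mertk stood lower after 24 h of TNF too, and their calls depended on the arrays and settings used. Fam107a read 5.44, 5.70 and 5.12, each below the lowest control array, a change of -0.83 ± 0.35 (limma adjusted p = 0.192). Mertk read 6.85, 6.74 and 6.77, each below the lowest control array of 7.01, a change of -0.40 ± 0.22 (limma adjusted p = 0.370). Without TNF 6 d replicate 2, an array that is in neither group, the adjusted p was 0.0244 for Fam107a and 0.0129 for Mertk. In that fit 4 of 6 were called lower, against 12.4% of all genes. With all 21 arrays and cyclic loess Mertk was called too (limma adjusted p = 0.0332), and Fam107a was not (0.0740). From the arrays of TNF 24 h and control alone Fam107a was called (limma adjusted p = 0.0412), and Mertk was not (0.0856). The further probe sets of Fam107a gave smaller changes at 24 h of TNF, -0.42 and -0.11. The latter lay near background in both groups, at 4.41 in control and 4.29 under TNF, so it could not have measured a fall. Against the 2 h TNF arrays the changes were -0.89 ± 0.35 for Fam107a and -0.55 ± 0.22 for Mertk, with limma adjusted p of 0.193 and 0.190, and of 0.0200 and 0.00118 without that array, where 4 of 6 were called lower against 10.1% of all genes.

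After 6 d of TNF Ear3, Cyp2e1, Fam107a and Mertk had means above those at 24 h, and the outlying replicate 2 belongs to this group. Ear3 read 5.75, 4.93 and 6.08, below every control array, with a change of -1.09 ± 0.28 (limma adjusted p = 0.0141, and 0.0274 with a change of -0.76 without replicate 2). It missed the threshold without control replicate 2 (0.0545) or 3 (0.0730). Cyp2e1 read 5.34, 6.51 and 5.48, of which replicate 2 lay within the control range, with a change of -0.91 ± 0.29 (limma adjusted p = 0.0433, and 6.38e-04 with a change of -1.27 without replicate 2). Cyp2e1 missed the threshold without control replicate 2 (0.153) or 3 (0.103) and without TNF 6 d replicate 1 (0.0830) or 3 (0.0688). So 2 of 6 were called lower against control, where 10.7% of all genes were, and without replicate 2 the same 2 genes, where 9.93% were. Mertk read 7.84, 6.62 and 7.57, on both sides of the control range, with a change of 0.16 ± 0.22 (limma adjusted p = 0.599). Without replicate 2 it was 0.52 ± 0.13 higher than control (limma adjusted p = 0.00485), 1 of 6 called higher where 10.5% of all genes were.

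Between 24 h and 6 d of TNF, 1 of the 6 was called higher, where 1.21% of all tested genes were, and without replicate 2 it was 3 of 6, against 4.1%. They were not the same genes. The 24 h means of Cyp2e1 and Ear3 lay near background, so their rises from 24 h are lower limits in size. With all arrays Cyp2e1 was called (1.06 ± 0.29, limma adjusted p = 0.0374), but without replicate 2 it stood at 0.69 (0.0834), without TNF 24 h replicate 1 at 0.94 (0.126) and without TNF 24 h replicate 3 at 0.92 (0.158). Without replicate 2 the called genes were Fam107a (1.36 ± 0.30, limma adjusted p = 0.00475), Ear3 (1.28 ± 0.24, 0.00120) and Mertk (0.92 ± 0.13, 4.91e-05). With it they stood at 0.92 ± 0.35 (limma adjusted p = 0.117), 0.95 ± 0.28 (0.0518) and 0.56 ± 0.22 (0.122). Without TNF 6 d replicate 1, Ear3 was also called (0.87, 0.0462). Of 15 other settings, 8 called Ear3 higher, 3 Fam107a and 3 Mertk, and the fit without replicate 2 enters these settings more than once. Against TNF 2 h the 6 d arrays were lower in Ear3 (-0.97 ± 0.28, limma adjusted p = 0.0277) and Cyp2e1 (-0.995 ± 0.29, 0.0279), 2 of 6 where 10.4% of all genes were called lower. Ear3 lost that call without TNF 6 d replicate 2 (0.0655) or TNF 2 h replicate 1 (0.105) or 3 (0.121), and Cyp2e1 without TNF 2 h replicate 1 (0.126) or 3 (0.0799) or TNF 6 d replicate 1 (0.0576). Mertk stood at 0.00 ± 0.22 in that comparison and at 0.37 ± 0.13 without replicate 2 (limma adjusted p = 0.0432), 1 of 6 called higher where 10.7% of all genes were.

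Cpm and Ang3 were near background throughout TNF. Cpm read 4.51, 4.19 and 4.23 at 2 h, 3.78, 3.88 and 4.08 at 24 h, and 4.14, 4.35 and 3.66 at 6 d. Ang3 read 5.08, 4.24 and 4.60 at 2 h, 4.66, 4.70 and 4.72 at 24 h, and 4.96, 4.46 and 4.60 at 6 d. Both were below the threshold on each of the 9 TNF arrays, so a fall under TNF could not have been measured for them.

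**Figure D4:**
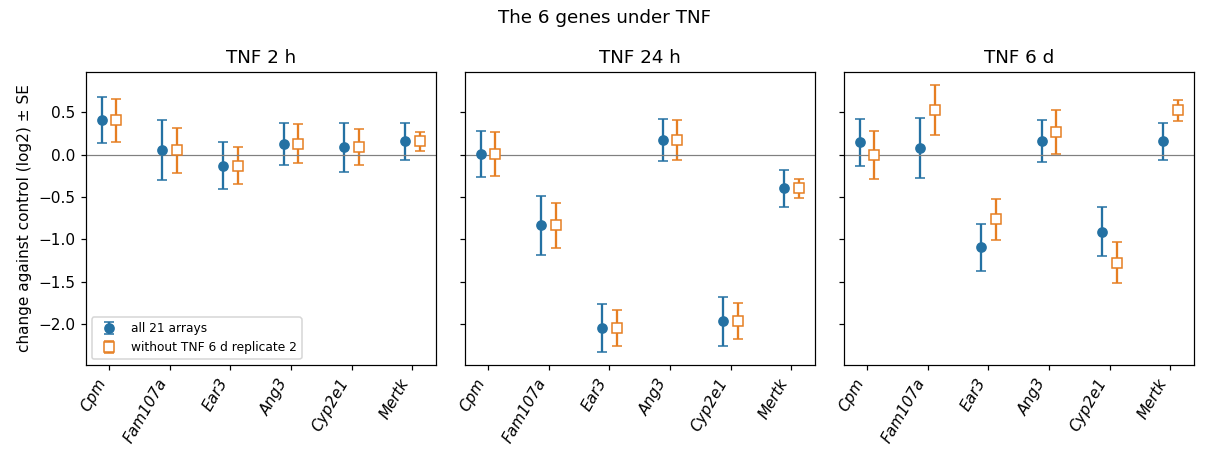
Change of the 6 genes against control (log2 ± SE) after 2 h, 24 h and 6 d of TNF, from limma models of all 21 arrays (filled circles) and of 20 arrays without TNF 6 d replicate 2 (open squares). Ear3 (-2.04) and Cyp2e1 (-1.96) lie lowest at 24 h, and leaving out the array moves the 6 d values of Fam107a and Mertk up.

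Dex and TNF set side by side at the same time differed most at 24 h for Ear3 among the 6. The Dex mean of 12.35 stood at least 7.71 ± 0.28 above the TNF mean of 4.64, which is near background. Cyp2e1, also near background under TNF, differed by at least 6.02 ± 0.29. Fam107a differed by 6.70 ± 0.35 and Mertk by 3.08 ± 0.22 at that time. These differences hold the Dex arrays that chose the genes and were not tested.

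Adipocyte markers moved under TNF beside these genes. Of the 12 tested, 0 rose and 7 fell at 24 h of TNF, where 3.27% of all genes fell, and without TNF 6 d replicate 2 it was 11, where 12.4% fell. Their mean level lay at 11.19 to 11.65 across its arrays, against 12.29 to 12.32 in control. At 6 d of TNF, 8 fell, where 10.7% of all genes did, with a mean level of 11.02 to 11.63. Their part in the falls of Ear3 and Cyp2e1 was not tested, and in RNA from a whole culture fewer cells of a type and less RNA per cell cannot be told apart. Under Dex the adipocyte mean level was 11.98 to 12.37 over the 9 arrays. Fibroblast and preadipocyte markers stood at 10.31 to 10.59 in control and at 8.80 to 9.22 at 6 d of Dex, where 7 of 10 fell against 5.08% of all genes. Without TNF 6 d replicate 2, 8 of 10 fell, against 13.5% of all genes.

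Mertk and the eosinophil-associated ribonucleases are well known from leukocytes, so markers of other cells were read in the same arrays. Of 18 macrophage markers, 3 or 4 exceeded the threshold in any group, and their mean level over the list was 4.71 to 4.90 in control, 4.72 to 4.93 under Dex and 4.77 to 5.25 under TNF. Ptprc, the pan-leukocyte CD45, was at most 4.48 and Adgre1, a surface protein of mature macrophages, at most 5.32, both below the threshold on all 21 arrays. Csf1r, the receptor for macrophage colony-stimulating factor, lay at 5.98 to 7.52. Of 7 eosinophil markers, 0 exceeded the threshold as a group mean, and Siglecf was at most 3.55. Of 6 measured hepatocyte markers, 1 or 2 exceeded it, and albumin, Alb, was at most 5.23. For the endothelium 1 of 6 exceeded it, and Pecam1 was at most 4.62.

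Known glucocorticoid targets give a frame for the timing. The list holds the receptor Nr3c1, genes of glucocorticoid supply and genes widely described as induced, and several were known from these arrays to be high, so it is not independent evidence. Of 30, 16 rose and 2 fell at 2 h of Dex, 17 and 1 at 24 h, and 17 and 3 at 6 d, by limma. Of all genes 1.66% rose and 0.814% fell at 2 h, 2.06% and 2.11% at 24 h, and 3.22% and 5.08% at 6 d. With TNF 6 d replicate 2 left out, the list gave 19 and 4 at 2 h (4.29% and 2.83% of all genes), 19 and 4 at 24 h (6.39% and 6.79%) and 19 and 5 at 6 d (10.4% and 13.5%). Their median change was 1.26, 1.05 and 1.12, against -0.02, -0.00253 and -0.02 over all tested genes. Fkbp5, a co-chaperone of the receptor, rose by 3.74 ± 0.32, 4.07 ± 0.32 and 4.02 ± 0.32 at the 3 times. Like Mertk it was near its 6 d change by 2 h, but it lacked the lower 24 h mean of Mertk. Errfi1, an inhibitor of growth factor receptors, was highest at 2 h, with 5.05 ± 0.40, 2.92 ± 0.40 and 3.35 ± 0.40. Lcn2, an iron-binding lipocalin, peaked at 24 h (5.92 ± 0.75) and was not called at 6 d (2.04 ± 0.75, limma adjusted p = 0.118), but was without that array (1.97e-04). Gadd45b was not called under Dex, except without that array at 6 d (1.004, limma adjusted p = 5.47e-04). Nr3c1 itself was at -0.97 and -0.89 against control at 24 h and 6 d, not called (limma adjusted p = 0.342 and 0.283), and was called lower at both times without that array (2.17e-05 and 3.53e-05).

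The relatives of the 6 genes were read in the same way. Of the 2 sister receptors of Mertk, Axl was at 8.45 in control and 8.16 at 6 d of Dex, and Tyro3 at 5.87 and 5.66, neither called. These names, with Fam107b, Cpd and Rnh1, were chosen after their values were seen. Of 28 tested genes of TAM signalling and uptake of dying cells, limma called 0 at 2 h of Dex (0 at an unadjusted p below 0.05). At that time 1.66% of all genes rose and 0.814% fell. At 24 h 1 rose and 1 fell, near the 2.06% and 2.11% of all genes, and at 6 d 1 rose and 2 fell, near the 3.22% and 5.08% of all genes. Leaving out the outlying array gave 1 and 3 at 24 h (6.39% and 6.79% of all genes) and 2 and 5 at 6 d (10.4% and 13.5%). The riser was Gas6, a ligand that bridges Mertk to dying cells, by 1.24 ± 0.28 at 24 h (limma adjusted p = 0.0120) and 1.19 ± 0.28 at 6 d (0.00915). Thbs1, thrombospondin, fell by 2.17 ± 0.55 at both times. Under TNF, limma called 1 of the 28 higher and 0 lower at 2 h, 3 and 1 at 24 h, and 2 and 1 at 6 d. Of all 12156 genes, 464, 1056 and 1851 were called in either direction. Leaving out the outlying array gave 3 and 0, 7 and 5, and 8 and 1, where 1297, 3111 and 2488 of all genes were called. With all arrays the risers under TNF were other genes than Gas6. Mfge8, a bridging protein for integrins, rose by 1.51 ± 0.19 at 24 h and 1.76 ± 0.19 at 6 d. The integrin Itgav rose by 0.99 ± 0.21 and 0.996 ± 0.21, after a rise of 1.19 ± 0.21 at 2 h.

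Among the ribonuclease A superfamily, 10 of 26 listed genes had a probe set of their own and 3 passed the filter. Ang4, another angiogenin, passed it only through the 3 arrays of 6 d of Dex, where it stood at least 3.61 ± 0.23 above control, so that difference is given with no test. Its mean was 4.13 ± 0.08 in control, 4.03 ± 0.16 at 2 h, 4.79 ± 0.22 at 24 h and 7.74 ± 0.63 at 6 d (SD, n = 3), a late course like that of Ang3. The suffix x of that probe set again marks probes that can bind related transcripts, and the second probe set of Ang4 reached 4.94 ± 0.23 at 6 d, below the threshold. So signal of Ang3 and Ang4 transcripts was not separated by these probe sets, and its part was not tested. Rnase4, which shares a gene locus with angiogenin, was abundant at 10.87 in control and 11.19 at 6 d of Dex, not called, while its 0.95 at 24 h was called only without TNF 6 d replicate 2 (limma adjusted p = 0.0140). It rose by 1.17 ± 0.34 at 6 d of TNF (limma adjusted p = 0.0259). The ribonuclease inhibitor Rnh1 stood at 11.54 in control, 12.02 at 24 h and 11.77 at 6 d of Dex, not called, while the 0.48 at 24 h was called without TNF 6 d replicate 2 (limma adjusted p = 0.0375).

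**Figure D5:**
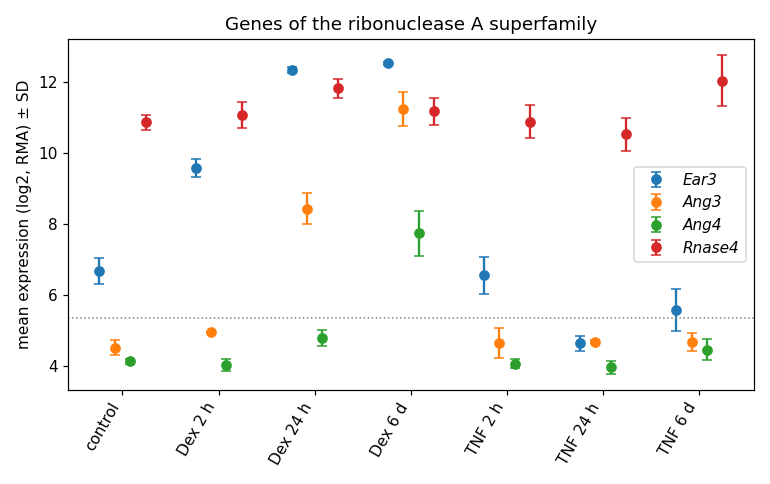
Mean expression (log2, RMA) ± SD (n = 3 arrays) of Ear3, Ang3, Ang4 and Rnase4 in the 7 groups, with the level threshold of 5.34 dotted; levels of different genes are not comparable. Ear3 is high from 2 h of Dex, Ang3 from 24 h and Ang4 at 6 d, while Rnase4 lies above 10 in all groups.

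Of 51 listed genes of P450 family 2 and its electron donors, 36 were measured and 14 tested, without Cyp2e1. At 2 h of Dex limma called 0 (0 at an unadjusted p below 0.05), where 1.66% of all genes rose and 0.814% fell. At 24 h 1 rose and 1 fell, where 2.06% and 2.11% of all genes did. At 6 d 1 rose and 5 fell, where 3.22% and 5.08% did. With the outlying array left out they were 3 and 3 at 24 h (6.39% and 6.79% of all genes) and 3 and 6 at 6 d (10.4% and 13.5%). Cyp2b10, a drug-metabolising P450, rose by 1.01 ± 0.23 at 24 h and 2.36 ± 0.23 at 6 d (limma adjusted p = 0.0144 and 1.27e-06), which gives it a slow course like Cyp2e1 and a smaller size. Cyp2c70, known from bile acid metabolism, fell by 1.98 ± 0.23 and Cyp2j9 by 1.28 ± 0.24 at 6 d. The list's median change at 6 d was -0.18. Of the carboxypeptidases related to Cpm, 3 of 7 were tested, and limma called 0 at each Dex time (0 at an unadjusted p below 0.05 each time). Cpd stood 0.40 ± 0.29 above control at 6 d. Cpe, the prohormone-processing enzyme, and Aebp1 rose by 1.17 ± 0.24 and 1.63 ± 0.27 at 6 d of TNF, and by 1.52 and 1.92 without the outlying array of that group. They were 2 of the 3 tested, where 1851 of 12156 genes were called in either direction. Without that array the list again gave 2 rises, where 10.5% of all genes rose. Settings beyond leaving out that array were not run for Cpe and Aebp1. Fam107b, the one paralogue of Fam107a, was at 10.19 in control and at 9.20, 10.12 and 9.95 under Dex, not called. Its -0.99 at 2 h was called lower without TNF 6 d replicate 2 (limma adjusted p = 1.76e-04).

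Across the 21 arrays the 6 genes resembled each other to different degrees. Pearson's r was 0.98 between Cpm and Fam107a and between Fam107a and Ear3, and lowest, 0.70, between Ang3 and Mertk. All 15 pairs share the same arrays and the Dex groups that chose them, so this is a description. Beyond the 6, the tested genes with the highest r to Mertk were the transcription factor Tead4 (r = 0.98), Ccdc71l (0.97) and Fkbp5 (0.97). Tead4 was higher by 1.99, 1.62 and 1.90 at 2 h, 24 h and 6 d of Dex, early and lower at 24 h as Mertk was. For Cpm they were Glul, glutamine synthetase (0.97), Trp53inp1 (0.96) and Acsm3 (0.95). Fam107a shared Trp53inp1 (0.97) and Glul (0.97), with the neuropeptide receptor Adcyap1r1 (0.96). Ear3 had Apoc3 (0.96), Adcyap1r1 (0.95) and the lipase Pnpla2 (0.95), and Cyp2e1 had Il17re (0.97), Pnpla2 (0.96) and Apoc3 (0.96). Ang3 had the chemokine Ccl6 (0.97), Depp1 (0.96) and Phka2 (0.96), which stood at 0.49, -0.45 and 0.06 against control at 2 h and at 3.97, 3.61 and 1.36 at 6 d. Each r is over 21 arrays, which include the Dex arrays that chose the 6 genes, so these likenesses are a description too. The order of the genes by r depends on 1 array. Without TNF 6 d replicate 2, Apoc3, Adcyap1r1 and Pnpla2 ranked 5, 6 and 9 for Ear3 and Acsm3 ranked 8 for Cpm, while Glul, Trp53inp1, Ccl6, Pnpla2 and Tead4 ranked 1 for Cpm, Fam107a, Ang3, Cyp2e1 and Mertk.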

How the data were processed

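Each of 21 RNA samples was hybridised to an Affymetrix mouse array. The deposited values are log2 levels made by the authors with RMA, per the submitters' processing notes, and no version is given there; arrays have no read depth, and 3 arrays a group limit the precision. They were used as deposited. Per gene, the single-gene probe set with the highest mean was taken (34958 probe sets list 1 gene, 932 several, 9211 none), with 34754 symbols looked up by Entrez identifier in RefSeq's GRCm38.p6 table and 204 kept. Genes above 5.34 on 3 or more arrays entered the tests. In R 4.3.3, limma 3.58.1 fitted a mean per group over 21 arrays, with trended moderation and 14 residual degrees of freedom. Two-sided p were adjusted by Benjamini and Hochberg over 12156 genes in each of 9 comparisons and called below 0.05; an exact permutation of 3 against 3 cannot go below 0.1. The labels call the replicates biological without naming separate cultures, so p-values measure the spread between these samples. No 2 arrays held identical values (0 pairs).

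The genes and lists were chosen with earlier results of these data known. Named are the 6 genes, up to 4 called genes of largest change per list, and the 3 genes with the highest Pearson r per gene. Same-numbered replicates deviated together (r of 0.23 to 0.45) in 1 comparison, Dex 24 h against control. The model was tested on simulated data for TNF 24 h against control, with 12156 genes and 50 changed at each size. There it recovered 14% of changes of 0.5, 46% of 1, 84% of 2 and 98% of 4. Of its calls on the simulated data, 5.47% were false. The simulated noise had the same SD per gene in every group, whereas on the real arrays TNF 6 d replicate 2 stood apart. Whether these rates hold for the real arrays was not tested. On the real arrays, leaving out TNF 6 d replicate 2 moved the genes called in that comparison from 1056 to 3111. Other settings were no filter, a stricter filter (6.10, the 60th percentile), the mean of probe sets, cyclic loess, median centring, no trend, only 2 groups, a replicate block, leaving out TNF 6 d replicate 2 and leaving out each array.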

Additional observations from a re-analysis of the deposited data

Results flagged for a closer look

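The change under TNF differed between times for Ear3 and Cyp2e1, by limma's test of the difference itself. Between 2 h and 24 h of TNF, Ear3 changed by -1.92 (adjusted p = 1.80e-04, lower on 3 of 3 arrays) and Cyp2e1 by -2.05 (1.25e-04, lower on 3 of 3). Between 24 h and 6 d, Cyp2e1 changed by 1.06 (adjusted p = 0.0374). The sizes that involve 24 h are lower limits, since both genes had near-background means then. Between 2 h and 6 d, Ear3 changed by -0.97 (adjusted p = 0.0277) and Cyp2e1 by -0.995 (0.0279), and arrays of the 2 groups overlap for both genes. The 3 values that involve 6 d lose their call when single arrays are left out.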

How the results depend on the processing

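The falls of Ear3 and Cyp2e1 at 24 h of TNF, against control and against 2 h, were called under each of 15 other settings (Ear3 against control from -2.25 to -1.89, Cyp2e1 from -2.22 to -1.80). Calls at 6 d of TNF did not hold under models of the 2 groups alone, where that group carries its own spread. Cyp2e1 at 6 d against control also missed the threshold with no filter (adjusted p = 0.0607) and with cyclic loess (-0.61, 0.260), and against 24 h with no filter (0.0522). With cyclic loess, 6 d against 2 h was not called for Ear3 (-0.63, 0.0641) or Cyp2e1 (-0.71, 0.199), while Mertk was called higher (0.36, 0.0393) and was also called against control (0.52, 0.00457). At TNF 24 h against 2 h, Mertk was called with cyclic loess (-0.55, 0.00430) and in the 2 groups alone (0.0404). Uncalled values near 0 that changed sign were, with the mean of probe sets, Fam107a at TNF 2 h (-0.20) and Cpm at TNF 24 h (-0.025); without TNF 6 d replicate 2, Cpm at TNF 6 d against control (-0.0039) and against 24 h (-0.012), and Ang3 against 24 h (0.091, and 0.023 with cyclic loess); and with median centring, 6 d against 2 h, Fam107a (-0.021), Ang3 (-0.020) and Mertk (-0.047). Leaving out each array, uncalled changes that crossed 0 ranged, at TNF 2 h against control, from -0.29 to 0.38 for Fam107a, -0.33 to 0.18 for Ear3, -0.093 to 0.33 for Ang3 and -0.11 to 0.32 for Cyp2e1. The ranges were -0.073 to 0.10 for Cpm at TNF 24 h, and at 6 d -0.0039 to 0.34 for Cpm, -0.34 to 0.52 for Fam107a and -0.086 to 0.52 for Mertk. Between TNF times they were -0.15 to 0.27 for Ang3 from 2 h to 24 h, -0.012 to 0.33 for Cpm and -0.16 to 0.091 for Ang3 from 24 h to 6 d, and -0.39 to 0.47 for Fam107a, -0.17 to 0.25 for Ang3 and -0.24 to 0.37 for Mertk from 2 h to 6 d; Mertk was called at its upper end at 6 d.

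Without TNF 6 d replicate 2 in any fit, all genes called against control numbered 1297 against 464 at TNF 2 h, 3111 against 1056 at 24 h, 866 against 301 at Dex 2 h, 1602 against 508 at 24 h and 2913 against 1009 at 6 d. They numbered 2682 against 692 for TNF 24 h against 2 h and 1118 against 728 for 6 d against 24 h. In the 2 groups alone these counts were 844, 1790, 874, 1860, 2421, 1151 and 2, and 29 against 1851 for TNF 6 d against control and 37 against 1741 for 6 d against 2 h. With cyclic loess they were 1642 for TNF 24 h, 472, 785 and 1523 for Dex at 2 h, 24 h and 6 d, and 1265 for TNF 24 h against 2 h. The cause of these shifts was not tested. Leaving out each array gave 334 to 404 at TNF 2 h, 755 to 985 at 24 h, 1018 to 4596 at 6 d, 477 to 590 for 24 h against 2 h, 387 to 3826 for 6 d against 24 h and 1024 to 4243 for 6 d against 2 h, and for Dex 208 to 238, 297 to 362 and 682 to 762. With the replicate block the count was 514 against 508 at Dex 24 h, and Ear3 at TNF 6 d against 24 h was called (adjusted p = 0.0185); the block changed no other call of the 6 genes under TNF.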
